A study of Mus musculus with 30 samples.

Results

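Complete transection of the thoracic spinal cord was compared with sham surgery in the triceps brachii, a forelimb muscle whose motor neurons lie in the cervical cord and so above the lesion. The comparison takes every gene in 12 of the 30 mRNA libraries of the series: 6 triceps libraries from male mice with a transection at the third thoracic level (T3) and 6 from male mice with sham surgery, all sampled 3 days after surgery. A further 6 triceps libraries from mice transected at the ninth thoracic level (T9) shared the model, so 18 libraries entered the fit. In the gastrocnemius, a hindlimb muscle below both lesions, each of the 3 surgeries had 4 libraries, and the numbers in the labels put 12 mice in both muscles. The sources used here do not give strain, age or what the sham surgery consisted of. In every triceps group 2 library labels carry the number 57 and 4 carry 60, with no stated meaning. The model has a term for that number. The labels number the samples within a group without saying in words that they are separate mice, so p-values measure the spread between these samples. The values are reads of a gene per 1000000 counted reads (CPM), on a log2 scale in the model.

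Skeletal muscle keeps its mass by balancing protein synthesis against breakdown. In wasting muscle, ubiquitin ligases such as atrogin-1 (Fbxo32) and MuRF1 (Trim63) tag proteins for the proteasome, while autophagy delivers others to the lysosome. Circulating signals, glucocorticoids and reduced insulin-like growth factor among them, can raise these genes through the glucocorticoid receptor and FOXO transcription factors in a muscle that keeps its nerve. Denervated muscle also raises acetylcholine receptor subunits and myogenin.

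The promoters of 4 genes are shown because the genes stand for groups that changed: a ligase, both metallothioneins and a lysosomal protease. Each is the 250 bases before the RefSeq start of the gene (GRCm38.p6), 5′ to 3′ on the gene's strand, with motif matches in capitals. For Trim63 (chr4:134314870-134315119, plus strand) the capitals mark a match to the glucocorticoid receptor palindrome of GAACA and TGTTC with 3 bases between them and, after 1 base, the FOXO motif GTAAACA on the other strand. For Mt1 (chr8:94178839-94179088, plus strand) and Mt2 (chr8:94172368-94172617, plus strand) they mark the core of the metal response element, TGCACNC or TGCGCNC on either strand. For Ctsd (chr7:142387828-142388077, minus strand) they mark the E-box CACGTG, the second time with the flanks of TCACGTGA.
Trim63: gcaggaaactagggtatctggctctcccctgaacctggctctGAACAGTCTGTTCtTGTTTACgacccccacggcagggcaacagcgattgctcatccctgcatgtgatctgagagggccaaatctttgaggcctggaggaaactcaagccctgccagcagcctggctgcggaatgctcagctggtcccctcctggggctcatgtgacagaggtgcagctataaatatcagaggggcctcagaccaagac
Mt1: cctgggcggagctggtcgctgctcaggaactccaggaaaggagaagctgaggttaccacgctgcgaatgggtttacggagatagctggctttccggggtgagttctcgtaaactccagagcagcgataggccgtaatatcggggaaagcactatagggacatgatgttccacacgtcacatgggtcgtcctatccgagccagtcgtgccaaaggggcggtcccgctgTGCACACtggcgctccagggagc
Mt2: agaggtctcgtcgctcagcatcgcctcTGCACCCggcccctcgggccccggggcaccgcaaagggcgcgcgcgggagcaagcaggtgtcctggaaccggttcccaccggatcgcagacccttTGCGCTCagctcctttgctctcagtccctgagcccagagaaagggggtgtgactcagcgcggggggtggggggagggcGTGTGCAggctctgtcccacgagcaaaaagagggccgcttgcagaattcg
Ctsd: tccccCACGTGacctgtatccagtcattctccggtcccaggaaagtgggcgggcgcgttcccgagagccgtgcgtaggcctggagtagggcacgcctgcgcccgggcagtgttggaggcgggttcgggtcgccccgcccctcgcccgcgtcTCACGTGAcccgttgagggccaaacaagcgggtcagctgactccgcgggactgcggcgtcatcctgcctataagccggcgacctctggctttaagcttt
Both strands were searched in 32851 such windows. The palindrome occurred in 13 windows (0.0396%), the FOXO motif in 1040 (3.17%), the metal response core in 7032 (21.4%), the E-box in 1978 (6.02%) and its flanked form, which contains the plain E-box, in 258 (0.785%). A match describes the letters only, and bases outside a window were not searched. The Mt1 and Ctsd windows reach into the annotated spans of these genes given below, so the RefSeq and annotated starts differ.

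Depth, in units of 1000000 reads, was 13.3 to 23.4 in 17 of the 18 triceps libraries and 88.8 in T3 replicate 5. All 14 fibre markers were in the file, and their summed level was 111000 to 163500 CPM in sham (median 145600) and 106700 to 130700 CPM after T3 (median 118800), as the label of a skeletal muscle requires. Of the other cell types, none of 4 neutrophil and 6 lymphocyte markers was analysed here. Sham replicate 4 stood apart, with 1083 CPM of summed macrophage markers against 22.2 to 49.1 in the other sham libraries and 36.9 to 81.5 after T3, and with 1023 CPM of fibroblast markers against 173 to 415 and 129 to 330. The median gene of a library sat at a log2 CPM of 3.74 ± 0.277 (SD, n = 6) in sham and 3.97 ± 0.133 (SD, n = 6) after T3, a difference that did not pass an exact two-sided permutation test (p = 0.0671). The 10 most abundant genes of a library took 22.1% ± 1.5 of its reads (SD, n = 6) in sham and 18.8% ± 0.93 (SD, n = 6) after T3, and this difference passed the same exact permutation test (p = 0.00433). Its part in the changes of other genes was not tested. In bulk tissue, fewer cells of a type and less RNA per cell cannot be told apart.

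The triceps 3 days after T3 transection had a changed transcriptome with more genes higher than lower. Of 11249 genes tested, 2624 (23.3%) passed an adjusted p of 0.05 (limma, Benjamini-Hochberg), of which 2138 (19%) rose and 486 (4.32%) fell, and 4211 had an unadjusted p under 0.05. The median gene was 0.227 higher on the log2 scale. Against the same sham libraries it was 0.175 higher after T9, and T3 minus T9 had a median of 0.0474. Once each library was centred on its own median, 1140 rose and 894 fell, so 56% of the called genes were higher instead of 81.5%. The count of each list below is to be read beside the 19% and 4.32% of all genes. Where the count of called members given for a list moved by over 1.5 times with centring, both counts are given. Within label number 60 (4 against 4) 1247 genes passed, and within 57 (2 against 2) 684 passed. Without sham replicates 3 and 4, which had the lowest medians, 1899 genes passed, 1351 upward and 548 downward. Of 229 called genes in the lists and rankings examined singly, 200 kept their call whichever single library was left out, and 141 kept it under every alternative but label number 57 alone. In 632 genes (5.62%) every T3 library lay above every sham library, and in 113 (1%) every T3 library lay below.

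**Figure D1:**
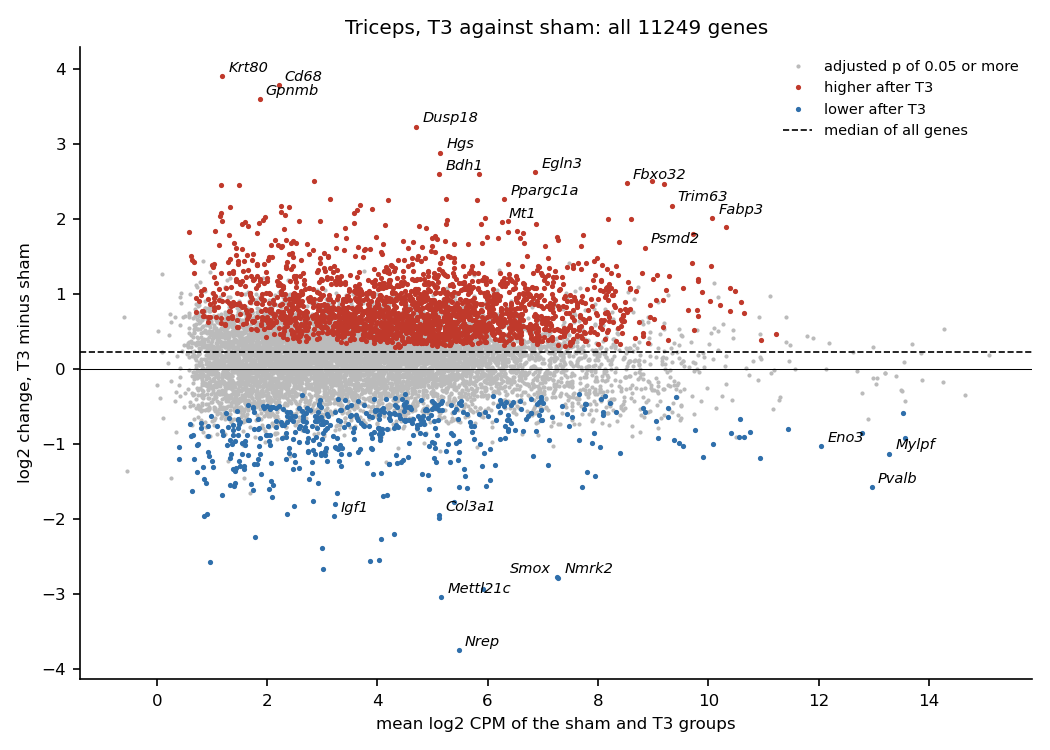
Mean log2 CPM of the sham and T3 groups (x axis) against the log2 change, T3 minus sham (y axis), for each of the 11249 genes in the triceps, with the 2138 that rose and the 486 that fell in colour. Krt80 and Cd68 stand at the top and Nrep at the bottom, and the cloud of uncoloured genes lies slightly above 0, at a median of 0.227.

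Among the 20 largest increases, Krt80, a type II keratin, measured 0.305 to 0.903 CPM (median 0.644) in sham and 4.23 to 40.3 CPM (median 7.07) after T3. All 6 T3 libraries lay above all 6 sham libraries, and the log2 change was 3.91 ± 0.47 (adjusted p = 3e-05), where ± is the standard error throughout. Hgs, a subunit of the ESCRT-0 complex that sorts ubiquitinated membrane proteins, was at 7.75 to 24.6 CPM (median 11.8) in sham and 40.5 to 176 CPM (median 128) after T3, again with no overlap, a change of 2.88 ± 0.39 (adjusted p = 9.5e-05). Egln3, a prolyl hydroxylase that marks hypoxia-inducible factors for degradation, stood at 23.2 to 72.6 CPM (median 54.0) in sham and 169 to 473 CPM (median 297) after T3, and its groups were also apart (2.62 ± 0.24, adjusted p = 3.1e-06). Mknk2, a kinase of the cap-binding protein eIF4E, changed by 2.51 ± 0.34. Hspb7, a small heat shock protein of striated muscle, changed by 2.46 ± 0.27. The phosphatase Dusp18 and the mitochondrial carrier Slc25a34 rose by 3.23 and 2.59, and in all 6 genes from Hgs to Slc25a34 the T3 and sham ranges did not meet. Slc6a9, Myh14 and Slc20a1 rose by 2.45, 2.25 and 2.19, with 5 of 6 T3 libraries above every sham library, and did not pass within label number 57.

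The largest decrease was in Nrep, first described in regenerating neurons, which measured 113 to 224 CPM (median 161) in sham and 2.66 to 42.7 CPM (median 11.1) after T3. No T3 library reached the lowest sham library, and the change was -3.75 ± 0.40 (adjusted p = 1.1e-05). Smox, spermine oxidase (chr2:131491496-131525922 in GRCm38), was at 214 to 1019 CPM (median 404) in sham and 44.6 to 86.3 CPM (median 55.8) after T3, also without overlap (-2.78 ± 0.31, adjusted p = 1.6e-05). Mettl21c, a muscle lysine methyltransferase, stood at 42.7 to 192 CPM (median 136) in sham and 7.75 to 27.7 CPM (median 11.8) after T3 (-3.04 ± 0.28, adjusted p = 3.2e-06). Nmrk2, the muscle nicotinamide riboside kinase of NAD synthesis, changed by -2.78 ± 0.51 (adjusted p = 0.001). Its overlapping partner on the other strand, Atcayos, rose by 1.32, and the sources used here do not give the strand setting of the counting. Gdap1, a mitochondrial outer membrane protein, fell by 2.66 on the log2 scale without overlap. Gamt, the last enzyme of creatine synthesis, and Sntb1, a syntrophin of the dystrophin complex, changed by -1.93 and -1.93, and their ranges did not meet either.

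**Figure D2:**
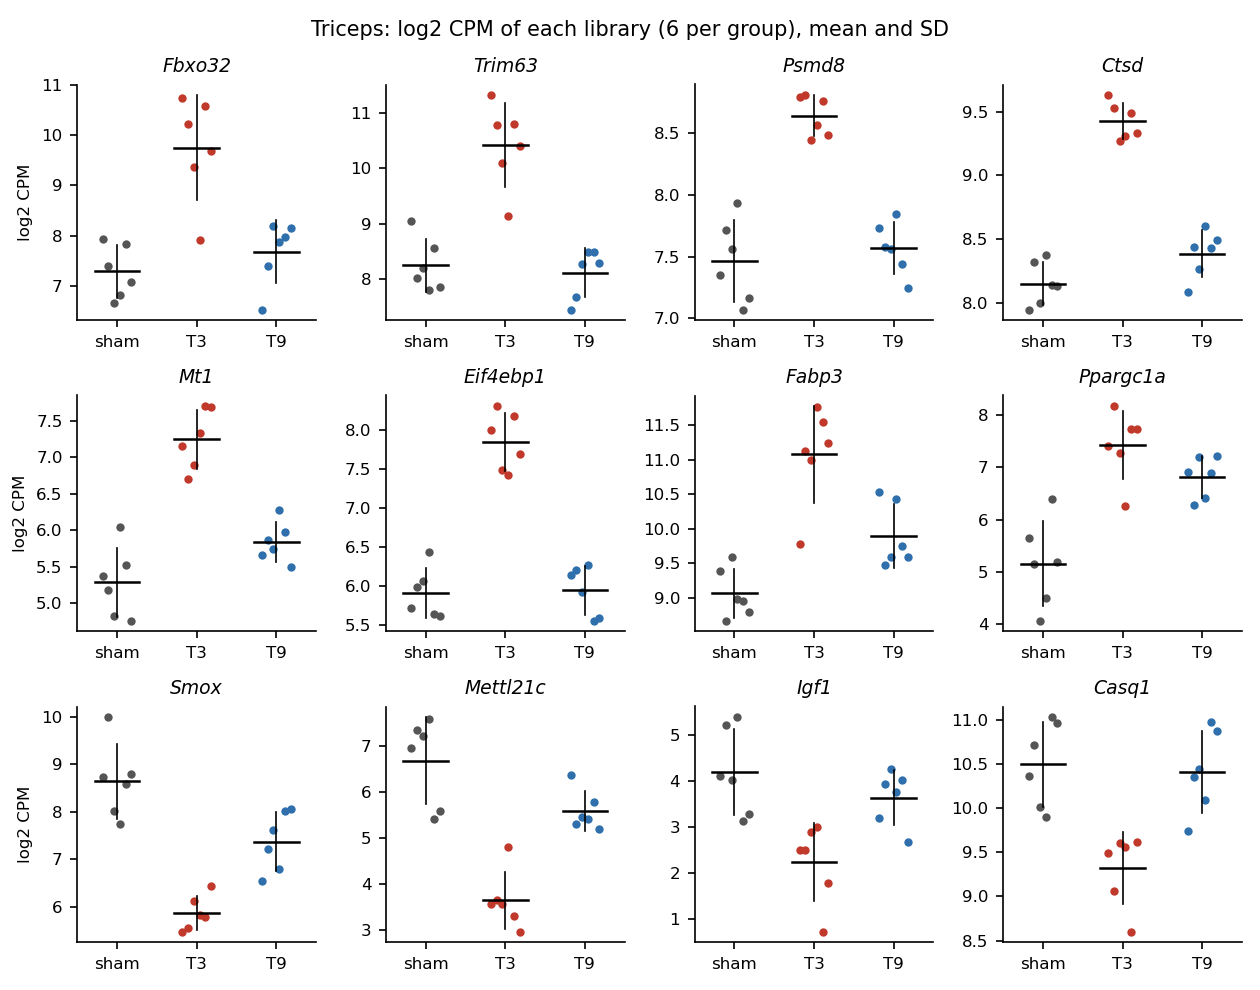
Log2 CPM (y axis) of 12 genes in each of the 6 sham, 6 T3 and 6 T9 triceps libraries (points), with group means and SD (bars). In 10 of the 12 panels every T3 point lies beyond every sham point, and Fbxo32 and Ppargc1a each have 1 T3 library inside the sham range.

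Both classical atrophy ligase genes rose in this muscle above the lesion. Trim63 (chr4:134315120-134329629) encodes MuRF1, which ubiquitinates myosin and other sarcomere proteins, and stood at 222 to 531 CPM (median 276) in sham and 565 to 2561 CPM (median 1558) after T3. Every T3 library exceeded every sham library, the change was 2.18 ± 0.31 (adjusted p = 0.00012), and it was 2.07 within label number 60 and 2.39 within 57. Fbxo32 (chr15:58175879-58214932) encodes atrogin-1, a substrate adaptor of an SCF ligase, and stood at 100.4 to 243 CPM (median 152) in sham and 240.1 to 1709 CPM (median 1015) after T3. The lowest T3 library fell just inside the sham range, and the change was 2.47 ± 0.39 (adjusted p = 0.0003), or 2.37 and 2.69 within label numbers 60 and 57. The antisense gene Gm15943 overlaps Fbxo32 and rose by 2.08.

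Of 32 ubiquitin ligase and related genes in the file, 11 rose and none fell, with a list median of 0.564 beside 0.227 for all genes. Usp14, a deubiquitinase of the proteasome, rose by 0.86, Fbxo31, another F-box protein, by 1.41, and Trim54 (MuRF3) by 0.92, and these 3 did not pass within label number 57. Asb15, a muscle SOCS-box protein, passed at 1.24 but lost its call without any of sham replicates 3 and 4 and T3 replicates 1 and 3, at adjusted p values from 0.052 to 0.0557. The ubiquitin precursor Ubb was at 0.0024 ± 0.16 (adjusted p = 0.99). Trim55 (MuRF2) was at -0.0071 ± 0.21 (adjusted p = 0.98), and Cblb, a ligase of insulin receptor substrate signalling, at 0.57 ± 0.27 (adjusted p = 0.13). After centring 8 members passed upward and 1 downward.

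Genes of both parts of the proteasome rose. The 20S core cuts proteins, and the 19S cap recognises and unfolds those carrying ubiquitin. Of 36 proteasome genes in the file 28 rose and none fell, with a median of 0.815. Psmd8 of the 19S lid measured 134 to 245 CPM (median 176) in sham and 348 to 449 CPM (median 406) after T3 without overlap (1.18 ± 0.13, adjusted p = 1.4e-05). Psmd2, a base subunit that binds ubiquitin-like domains, was at 154 to 448 CPM (median 261) in sham and 572 to 1136 CPM (median 858) after T3, again without overlap (1.62 ± 0.22, adjusted p = 7.6e-05). Psmd1 changed by 1.22 ± 0.16, the lid subunits Psmd6 and Psmd13 by 0.96 ± 0.12 and 1.14 ± 0.16, and the core subunit Psmb2 by 1.11 ± 0.15. Psmd13 overlaps Sirt3 on the other strand.

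The 8 proteasome members that did not pass included Psme4 at 0.59 and the assembly chaperones Psmd5, Psmd9 and Psmd10 at 0.31, 0.23 and -0.12. The inducible subunits Psmb8, Psmb9 and Psmb10, counted with the interferon genes, stood at -0.05, 0.097 and -0.02 and did not pass, and the activator Psme1 fell by 0.62 on the log2 scale. Centring left 16 of the 36 called upward and none downward. Without sham replicates 3 and 4 the number was 30, and within label number 60 it was 19.

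**Figure D3:**
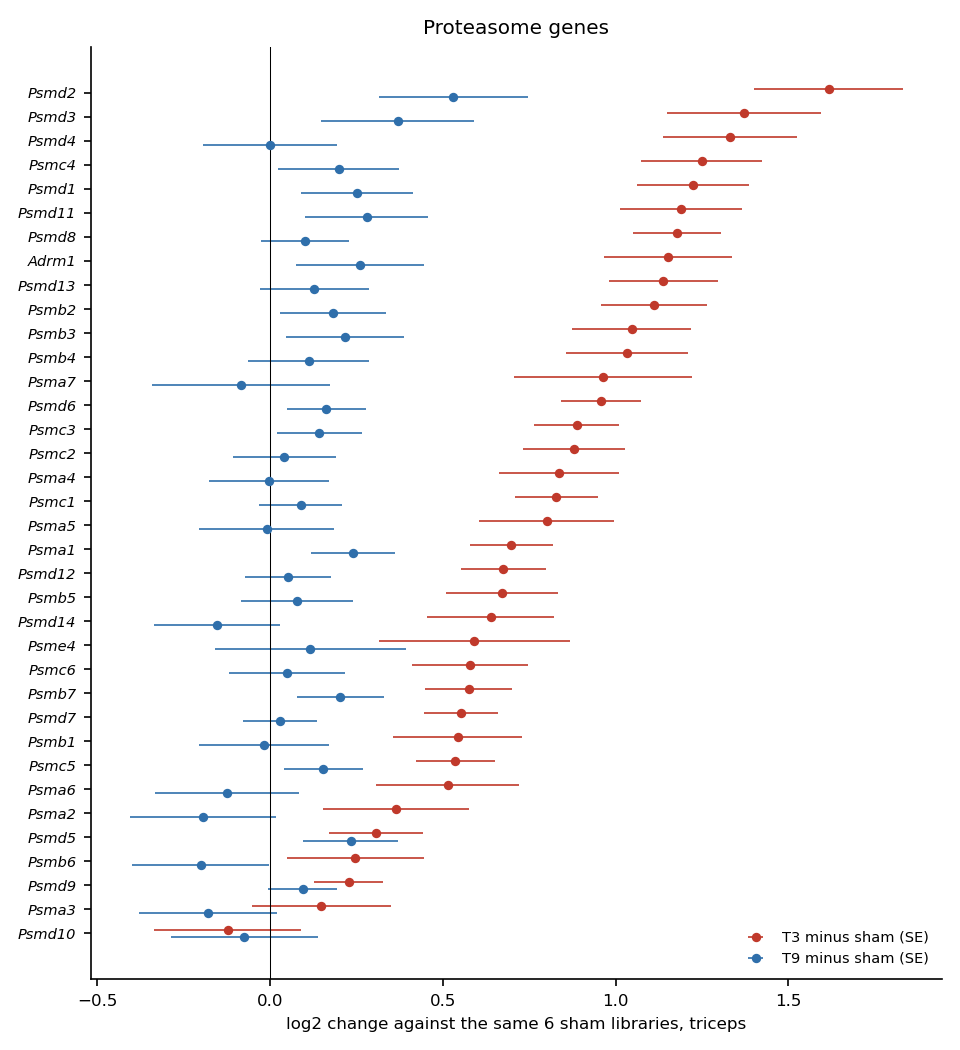
Log2 change of the 36 proteasome genes (x axis, bars: SE) after T3 and after T9, both against the same 6 sham libraries of the triceps, ordered by the T3 change. The T3 points run from -0.12 for Psmd10 to 1.62 for Psmd2, and 28 of the 36 passed the T3 test.

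Autophagy and lysosome genes rose less uniformly, 16 of 35 in the file and none falling, with a median of 0.433. Ctsd (chr7:142375911-142388038), the aspartic protease cathepsin D, stood at 246 to 332 CPM (median 281) in sham and 619 to 793 CPM (median 683) after T3. Its narrow groups were well apart, and the change was 1.28 ± 0.12 (adjusted p = 3.1e-06). Ctsl, cathepsin L, measured 74.4 to 126 CPM (median 81.9) in sham and 126 to 299 CPM (median 256) after T3, with all T3 libraries at or above the highest sham library (1.35 ± 0.21, adjusted p = 0.00028). Bnip3, a mitophagy receptor, rose by 1.18 ± 0.20, Gabarapl1 and Map1lc3b, which coat autophagosomes, by 1.07 ± 0.21 and 0.73 ± 0.14, and Wipi1, an early autophagosome protein, by 0.90 ± 0.13. Core initiation genes did not pass, with Ulk1 at 0.38 ± 0.33 (adjusted p = 0.41), Becn1 at 0.044 ± 0.13 (adjusted p = 0.82) and Atg5 at -0.19 ± 0.14 (adjusted p = 0.34), nor did Ctsb at 0.14. After centring 8 members passed upward, Map1lc3b not among them, and 1 passed downward.

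Of 35 glucocorticoid-induced genes 20 rose and none fell, and the list median was 1.11. Mt1 (chr8:94179082-94180327), a metallothionein that binds zinc, was at 27.02 to 65.7 CPM (median 38.9) in sham and 104 to 208 CPM (median 152) after T3. The groups did not meet, the change was 1.96 ± 0.22 (adjusted p = 1.8e-05), and it was 1.67 and 2.55 within label numbers 60 and 57. Mt2 (chr8:94172664-94173568), 5513 bases before Mt1 on the same strand, stood at 1.13 to 5.57 CPM (median 1.57) in sham and 3.24 to 10.6 CPM (median 7.83) after T3 (1.81 ± 0.38, adjusted p = 0.0027). Its highest sham value belonged to replicate 4, 4 of 6 T3 libraries lay above it, and the call was lost within label number 60. Pik3r1, the regulatory subunit of phosphoinositide 3-kinase, measured 29.0 to 58.3 CPM (median 31.3) in sham and 73.4 to 169.7 CPM (median 121) after T3 without overlap (1.76 ± 0.24, adjusted p = 0.0001). Sesn1, a sestrin that restrains mTORC1, rose by 1.43 ± 0.19, also without overlap.

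Klf15, a direct receptor target that drives amino acid breakdown, was at 21.2 to 59.95 CPM (median 37.3) in sham and 39.2 to 154 CPM (median 110.4) after T3. The median T3 library was above every sham library, and the change was 1.41 ± 0.27 (adjusted p = 0.0012). Fkbp5, a receptor co-chaperone, stood at 39.04 to 135 CPM (median 83.2) in sham and 119 to 264 CPM (median 216) after T3, with 5 of 6 T3 libraries above the sham range (1.36 ± 0.29, adjusted p = 0.0029). Cebpb and Cebpd, transcription factors of the acute phase, rose by 1.48 ± 0.26 and 1.93 ± 0.50, and Cdkn1a, the p21 cell cycle inhibitor, by 1.67 ± 0.36. Within label number 57 Fkbp5 and Cebpb did not pass, and within 60 Cebpd and Cdkn1a did not. Cebpb overlaps Tmem189 on the other strand.

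Other classical targets of the receptor did not pass. Tsc22d3 (GILZ) measured 97.7 to 191 CPM (median 132) in sham and 134 to 250.5 CPM (median 179.7) after T3 (0.41 ± 0.18, adjusted p = 0.1), ranges that overlapped. Pdk4, which blocks pyruvate oxidation, was at 0.062 ± 0.51 (adjusted p = 0.94), Sgk1 at 0.24 ± 0.26 (adjusted p = 0.49), Zbtb16 at 0.63 ± 0.49 (adjusted p = 0.35) and Dusp1 at 0.061 ± 0.24 (adjusted p = 0.87). The receptor gene itself, Nr3c1, stood at 59.2 to 99.3 CPM (median 76.3) in sham and 62.0 to 105 CPM (median 77.0) after T3, fully overlapping (0.051 ± 0.15, adjusted p = 0.82). Of the 13 receptor and steroid genes 3 rose and 1 fell, and after centring 1 rose and 1 fell. Hsd11b1, which regenerates active glucocorticoid in the tissue, rose by 0.80 but did not pass after centring, and the chaperone Hsp90ab1 rose by 0.89. Foxo3 reached 0.95 ± 0.31 (adjusted p = 0.034) and Foxo1 1.06 ± 0.38 with an adjusted p just under 0.05. Both calls were lost when any of several single libraries was left out, sham replicates 3 and 4 and T3 replicates 1, 2, 3 and 5 in either gene and sham replicates 2 and 6 in Foxo1. After centring 16 of the 35 members passed upward, 17 without sham replicates 3 and 4 and 10 within label number 60.

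**Figure D4:**
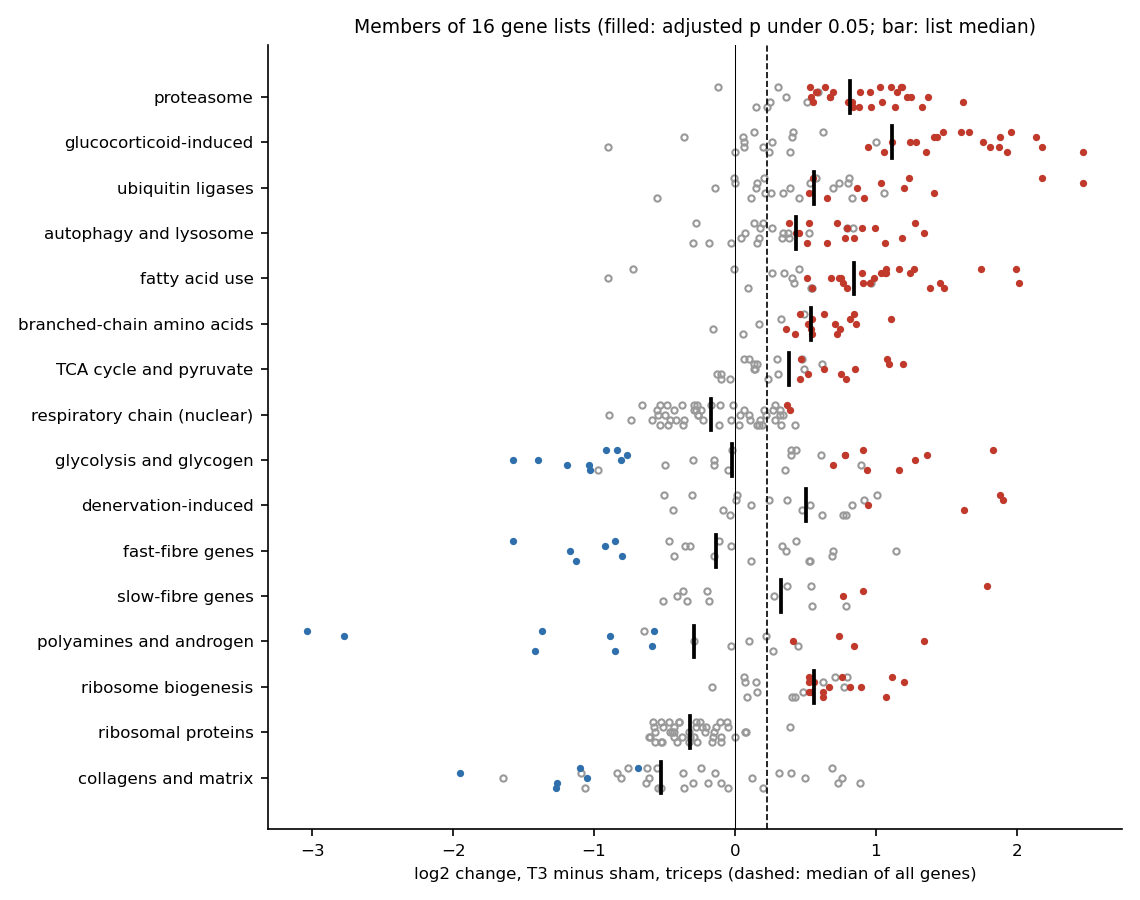
Log2 change, T3 minus sham, of each member (circles, filled where adjusted p was under 0.05) of 16 gene lists in the triceps, with list medians (bars) and the median of all genes (dashed line, 0.227). Proteasome, glucocorticoid-induced and fatty acid genes lie to the right with medians of 0.815, 1.11 and 0.847. Collagen and matrix genes have a median to the left of 0, as do ribosomal protein genes at -0.321.

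Single genes of growth-factor signalling moved in both directions. Igf1 (chr10:87858265-87937042), insulin-like growth factor 1, was at 8.77 to 41.9 CPM (median 16.8) in sham and 1.64 to 7.96 CPM (median 5.63) after T3. No T3 library reached the lowest sham library, and the change was -1.97 ± 0.31 (adjusted p = 0.0003), or -1.97 and -1.96 within label numbers 60 and 57, where it did not pass in 57. Akt1, a kinase of that pathway, stood at 38.97 to 80.0 CPM (median 60.23) in sham and 154 to 243 CPM (median 173) after T3 without overlap (1.68 ± 0.18, adjusted p = 1.1e-05), while Akt2 stood at -0.0076. The receptor Igf1r was at -0.0039 ± 0.29 (adjusted p = 0.99) and Irs1 at 0.49 ± 0.46 (adjusted p = 0.44). Igfbp3, which carries the hormone, rose by 1.04 and Grb14, an insulin receptor adaptor, fell by 0.78 on the log2 scale, both losing their call within label number 60. Of 22 genes of the pathway 5 rose and 2 fell, beside 19% and 4.32% of all genes, at a median of 0.13.

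Downstream, Eif4ebp1 (chr8:27260329-27276674), the repressor of cap-dependent translation that mTORC1 inactivates, measured 48.8 to 86.1 CPM (median 58.0) in sham and 172 to 316 CPM (median 230.1) after T3. No T3 library reached the sham range, and the change was 1.94 ± 0.18 (adjusted p = 3.1e-06). Within label numbers 60 and 57 it was 1.75 and 2.31. Among 20 mTORC1 genes 5 rose (3 after centring), beside 19% of all genes, and none fell. Mtor rose by 1.25, and its call was lost without sham replicates 3 and 4. Ddit4 (REDD1) passed at 2.14 ± 0.65 (adjusted p = 0.024) with wide ranges, 2.53 to 14.7 CPM (median 7.83) and 11.8 to 106 CPM (median 29.1), and lost its call without sham replicate 1, T3 replicate 1 or T3 replicate 5.

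Genes of the machinery that builds ribosomes rose, 14 of 27 with a median of 0.559, while none of 44 ribosomal protein genes passed in limma (1 at an unadjusted p under 0.05) and their median was -0.321, below that of all genes. Nop14, a processing factor of the small subunit, rose by 1.199 ± 0.20, the nucleolar protein Ncl by 0.89 ± 0.16, and Fbl, a methyltransferase of ribosomal RNA, by 0.63 ± 0.13. Of 30 translation factors 13 rose and none fell, with Eif4a1, the RNA helicase of initiation, at 1.14 ± 0.16, Eif1 at 0.70 ± 0.11 and Eif3c at 1.22 ± 0.22. Centring left 6 biogenesis and 8 translation genes called upward, and 1 translation factor downward. With the library median as a covariate, 9 ribosomal protein genes passed upward and the list median was 0.287, so its sign turns with the scaling.

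In the myostatin, activin and BMP group 7 of 22 genes rose and 1 fell. Mstn, the secreted inhibitor of muscle growth, stood at 40.7 to 98.5 CPM (median 60.45) in sham and 25.6 to 90.8 CPM (median 83.2) after T3, overlapping (0.20 ± 0.21, adjusted p = 0.49), with the lowest value in T3 replicate 5. Its receptor genes Acvr2a and Acvr2b were at 0.33 and -0.15. The inhibitory Smad6 rose by 1.31 ± 0.24, Id1, a target of BMP signalling, by 1.09 ± 0.23, and the TGF-beta receptor Tgfbr2 by 1.21 ± 0.23, none of which passed within label number 57.

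More polyamine and androgen genes fell than rose. Polyamines are small cations that support growth, and several of their enzymes respond to androgen in muscle. Of 19 genes 8 fell and 4 rose, with a median of -0.291. Besides Smox, Amd1, S-adenosylmethionine decarboxylase, was at 249 to 773 CPM (median 304) in sham and 87.0 to 272 CPM (median 125) after T3 (-1.37 ± 0.27, adjusted p = 0.0016), and its copy Amd2 changed by -1.42 ± 0.27. The copies are near-identical, so the split of reads between them is uncertain. Srm, spermidine synthase, rose by 1.35 ± 0.15, Paox, a polyamine oxidase, by 0.85 ± 0.14, and Odc1, ornithine decarboxylase, was at 0.22 ± 0.21 (adjusted p = 0.45).

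Fatty acid genes rose widely. Of 36 genes for uptake, storage and oxidation 24 rose and none fell, at a median of 0.847, and after centring 16 rose. Fabp3, the fatty acid carrier of oxidative fibres, stood at 407 to 772 CPM (median 501) in sham and 876 to 3490 CPM (median 2327) after T3. Every T3 library was above every sham library, and the change was 2.01 ± 0.29 (adjusted p = 0.00013), or 1.75 and 2.53 within label numbers 60 and 57. A processed copy of Fabp3 exists in the genome, and the gene overlaps Zcchc17 on the other strand, which was at -0.15 ± 0.14 (adjusted p = 0.45). Cd36, the membrane importer, measured 174 to 324 CPM (median 206) in sham and 370.4 to 641 CPM (median 503) after T3 without overlap (1.25 ± 0.17, adjusted p = 8.6e-05). Pnpla2, the first triglyceride lipase, rose by 1.996 ± 0.31, and the oxidation enzymes Eci2, Hadh and Acadl by 1.16 ± 0.13, 0.75 ± 0.10 and 0.79 ± 0.12. Cpt1b, the gate to mitochondrial import, did not pass (0.97 ± 0.46, adjusted p = 0.14), nor did Ucp3 (-0.72 ± 0.37, adjusted p = 0.16) or Angptl4, a lipoprotein lipase inhibitor (-0.90 ± 0.53, adjusted p = 0.22).

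Breakdown of branched-chain amino acids followed with 15 of 20 genes higher and none lower, at a median of 0.543, and after centring 7 rose and 1 fell. Dbt, the core of the ketoacid dehydrogenase, rose by 0.82 ± 0.13, Hibch of valine breakdown by 0.85 ± 0.13, and the activating phosphatase Ppm1k by 0.86 ± 0.14. The kinase that opposes it, Bckdk, was at -0.16 ± 0.15 (adjusted p = 0.46). In the citric acid cycle and pyruvate group 10 of 26 rose and none fell, led by Mdh1, cytosolic malate dehydrogenase, at 1.08 ± 0.18 and Idh2 at 1.09 ± 0.21, and 5 passed after centring.

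The list of mitochondrial regulators, which also holds ketone body and NAD genes, had 19 members. Of these 9 rose, the ketone body gene Bdh1 among them, and 1 fell, Nmrk2 of NAD synthesis. Ppargc1a (chr5:51454250-51567726) encodes the coactivator PGC-1 alpha and was at 16.8 to 83.6 CPM (median 36.0) in sham and 76.6 to 287 CPM (median 191) after T3. Only the lowest T3 library lay inside the sham range, and the change was 2.27 ± 0.31 (adjusted p = 9.9e-05). Its partner receptors Esrra and Esrrg rose by 0.70 ± 0.14 and 1.48 ± 0.27, Esrra losing its call after centring. Bdh1, a ketone body dehydrogenase, stood at 3.91 to 24.4 CPM (median 18.6) in sham and 51.3 to 139 CPM (median 90.2) after T3 without overlap (2.60 ± 0.34, adjusted p = 7e-05). Of 51 nuclear respiratory chain genes 2 passed, both upward, Ndufa10 at 0.37 and Atp5a1 at 0.39, and neither held after centring. The median of that list was -0.172, and with the library median as a covariate it was 0.215 with 12 genes called upward. None of 15 mitochondrially encoded genes passed in limma, 3 at an unadjusted p under 0.05.

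Glycolysis and glycogen genes divided, 9 of 31 rising and 9 falling. Ldha, the muscle lactate dehydrogenase subunit, measured 2433 to 4052 CPM (median 2945) in sham and 866 to 1694 CPM (median 1310) after T3, without overlap (-1.19 ± 0.15, adjusted p = 4.5e-05). Eno3, muscle enolase, was at 5184 to 8245 CPM (median 5869) in sham and 2312 to 3496 CPM (median 2941) after T3, also without overlap (-1.03 ± 0.14, adjusted p = 8.7e-05). Fbp2, the muscle fructose bisphosphatase, changed by -1.40 ± 0.17 and Tpi1 by -0.91 ± 0.13, though Tpi1 overlaps Spsb2 on the other strand. The glycogen genes Gbe1, the branching enzyme, at 33.8 to 61.0 CPM (median 42.0) in sham and 95.9 to 265 CPM (median 139.9) after T3 (1.83 ± 0.21, adjusted p = 2.3e-05), and Ugp2, which makes UDP-glucose (1.37 ± 0.16, adjusted p = 3e-05), were the called members with the smallest p-values. Gapdh (-0.047 ± 0.14, adjusted p = 0.82), Pkm (-0.02 ± 0.23, adjusted p = 0.96) and Pfkm (-0.15 ± 0.28, adjusted p = 0.72) did not pass.

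Fast-fibre genes of the sarcomere fell in part. Of 22 genes 6 fell and none rose, at a median of -0.132. Pvalb, the calcium buffer parvalbumin, stood at 7214 to 25960 CPM (median 15280) in sham and 2410 to 7078 CPM (median 4681) after T3 (-1.58 ± 0.26, adjusted p = 0.00038), with 6 of 6 T3 libraries below every sham library. Casq1, calsequestrin of the fast sarcoplasmic reticulum, measured 954 to 2085 CPM (median 1497) in sham and 388 to 786 CPM (median 739) after T3 without overlap (-1.17 ± 0.23, adjusted p = 0.0016). Mylpf and Myl1, fast myosin light chains, changed by -1.13 ± 0.26 and -0.85 ± 0.20, Tpm1 by -0.92 ± 0.16 and the Z-disc protein Myoz1 by -0.80 ± 0.16. Apart from Casq1 these did not pass within label number 57. The myosin heavy chains did not pass, with Myh4 (type 2B) at 0.53 ± 0.39 (adjusted p = 0.32), Myh1 (type 2X) at 0.70 ± 0.48 (adjusted p = 0.29) and Myh2 (type 2A) at 1.15 ± 0.51 (adjusted p = 0.11). The sham libraries themselves differed. Mylpf was at 31260 and 23070 CPM in sham replicates 3 and 4 and at 7480 and 7218 in 5 and 6. Myh4 ran the other way, at 5976 and 6784 against 44140 and 39800 CPM, and so did Casq1, at 1030 and 954 against 2085 and 1994. The part of this spread in the changes was not tested. Myhas, which runs antisense to Myh1, fell by 1.61 on the log2 scale. Of 14 slow-fibre genes 3 rose, a share near the 19% of all genes, and none fell. Actn2 rose by 1.79 and Myoz2 by 0.91, while slow myosin Myh7 was at 0.54 ± 0.60 (adjusted p = 0.51). After centring 1 slow-fibre gene passed.

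Of 22 denervation-induced genes 4 rose in the triceps, a share near the 19% of all genes, and none fell, at a median of 0.505. Myog, myogenin, stood at 2.93 to 27.5 CPM (median 3.94) in sham and 6.07 to 13.6 CPM (median 9.89) after T3, overlapping (0.83 ± 0.45, adjusted p = 0.18), and the highest sham value was that of replicate 4. The acetylcholine receptor subunits Chrna1 and Chrnd were at 0.12 ± 0.42 (adjusted p = 0.85) and 0.92 ± 0.45 (adjusted p = 0.15), Gadd45a at 0.48 ± 0.49 (adjusted p = 0.48) and Hdac4 at 1.01 ± 0.38 (adjusted p = 0.062). The members that rose were Ampd3, an AMP deaminase, at 1.88 ± 0.44 (adjusted p = 0.0051), the receptor Eda2r at 1.90 ± 0.45 (adjusted p = 0.0055), the satellite cell cadherin Cdh15 at 0.95 ± 0.23 and the synaptic kinase Musk at 1.62 ± 0.42. Ampd3 held within both label numbers, Eda2r was lost in 60, Cdh15 in 57, and Musk in 57 and without sham replicates 3 and 4. The stretch-responsive Ankrd2 was at 125 to 252 CPM (median 200.1) in sham and 406 to 2323 CPM (median 704) after T3 without overlap (2.002 ± 0.34, adjusted p = 0.00056), and the related Ankrd1 was at 0.62 ± 0.71 (adjusted p = 0.53). Atp1b1, a sodium pump subunit, rose by 1.08 ± 0.23 and did not pass within label number 57.

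Part of each stress-response group rose, beside 19% of all genes. Of 27 antioxidant genes 12 rose and none fell, at a median of 0.523, and after centring 6 rose. Prdx6, a peroxiredoxin, stood at 70.6 to 83.8 CPM (median 75.2) in sham and 111 to 132 CPM (median 122) after T3 without overlap (0.68 ± 0.096, adjusted p = 0.00012), Cat, catalase, rose by 1.03 ± 0.20 and Gsr, glutathione reductase, by 1.11 ± 0.21. Hmox1, haem oxygenase, was at 0.18 ± 0.41 (adjusted p = 0.77) and the regulator Nfe2l2 at 0.52 ± 0.20 (adjusted p = 0.063). Among 24 genes of the unfolded protein response 8 rose (5 after centring) and none fell, Herpud1 by 1.02 ± 0.14 and the chaperone Canx by 0.89 ± 0.16, while Hspa5 (BiP) was at 0.33 ± 0.18 (adjusted p = 0.18). Of 17 amino acid response genes 7 rose and 1 fell, with the factor Atf4 itself at 0.88 ± 0.13 and Mthfd2 of the folate cycle at 1.54 ± 0.27. The member that fell was Psph of serine synthesis (-1.06 ± 0.20, adjusted p = 0.00105), without overlap. Ddit3 at 0.44 ± 0.21 (adjusted p = 0.133), Phgdh at -0.51 ± 0.30 (adjusted p = 0.224) and Chac1 at -0.34 ± 0.55 (adjusted p = 0.67) did not pass. Small heat shock proteins led the 9 of 25 heat shock genes that rose, Cryab by 1.41 ± 0.19 and Hspb6 by 1.24 ± 0.26, and inducible Hspa1a was at -0.06 ± 0.60 (adjusted p = 0.95). Of the genes named here that rose, Prdx6, Cat, Gsr, Mthfd2, Cryab and Hspb6 did not pass within label number 57.

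Of 8 metallothionein and zinc genes 4 rose. Besides the metallothioneins, the zinc importer Slc39a14 (ZIP14) measured 3.54 to 14.3 CPM (median 11.8) in sham and 13.04 to 66.4 CPM (median 42.8) after T3, with 5 of 6 T3 libraries above the sham range (1.92 ± 0.38, adjusted p = 0.0018). The zinc-sensing factor Mtf1 was at 0.48 ± 0.26 (adjusted p = 0.19). Among 24 cytokine, STAT3 and NF-kappa-B genes 7 rose, beside 19% of all genes, and none fell. Il6ra, the interleukin-6 receptor, was at 2.99 to 9.87 CPM (median 5.93) in sham and 14.4 to 41.3 CPM (median 26.8) after T3 without overlap (2.08 ± 0.25, adjusted p = 3.1e-05), and Lcn2, lipocalin 2, at 0.828 to 1.69 CPM (median 1.22) in sham and 1.71 to 8.08 CPM (median 3.93) after T3 (1.66 ± 0.34, adjusted p = 0.0023), lost within label number 60. Socs3, a target of STAT3, was at -0.53 ± 0.42 (adjusted p = 0.35) and Stat3 at 0.24 ± 0.29 (adjusted p = 0.56). No interferon gene rose among 29, 2 fell (4 after centring), and the median was 0.0501.

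The clock, early-response and adrenergic groups changed in part. Of 22 clock genes 8 rose and 1 fell. Cry2, a repressor, rose by 1.51 ± 0.34, and Bhlhe41 measured 23.6 to 56.5 CPM (median 28.5) in sham and 11.7 to 17.9 CPM (median 14.3) after T3 without overlap (-1.21 ± 0.24, adjusted p = 0.002). Per1, which responds to glucocorticoids, passed at 1.61 ± 0.46 (adjusted p = 0.018) with ranges of 7.64 to 23.6 CPM (median 13.4) and 13.8 to 118 CPM (median 53.8), but not without T3 replicate 5. Arntl at 0.75 ± 0.41 (adjusted p = 0.19), Dbp at -0.65 ± 0.33 (adjusted p = 0.15) and Nr1d1 at -0.68 ± 0.58 (adjusted p = 0.39) did not pass, and the sham range of Nr1d1, 7.6 to 232 CPM (median 71.1), was wide. The sources used here do not give the hour of sampling. Of 24 early-response genes 6 rose (3 after centring), beside 19% of all genes. Ier3 led them, at 2.99 to 5.19 CPM (median 3.85) in sham and 11.5 to 20.3 CPM (median 15.7) after T3. Its groups did not overlap (1.98 ± 0.18, adjusted p = 3.1e-06), while Fos was at -0.50 ± 0.51 (adjusted p = 0.48). In the adrenergic group the phosphodiesterase Pde4b rose by 1.25 ± 0.23, and Nr4a3, a target of adrenergic signalling, was at -0.77 ± 0.59 (adjusted p = 0.34).

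Macrophage markers behaved unlike each other. Of 12 genes in the file 2 rose, Cd68, a lysosomal membrane protein, at 0.225 to 13.6 CPM (median 0.849) in sham and 5.89 to 53.6 CPM (median 18.04) after T3 (3.78 ± 0.69, adjusted p = 0.00095), and Gpnmb, a lysosome-stress glycoprotein, at 0.225 to 12.6 CPM (median 0.873) in sham and 7.35 to 38.4 CPM (median 11.1) after T3 (3.59 ± 0.69, adjusted p = 0.0014). The highest sham value of both was in replicate 4, and 4 and 2 T3 libraries lay above it. Without that library the changes were 4.46 and 4.36, and both still passed. The defining macrophage gene Csf1r was at -0.25 ± 0.44 (adjusted p = 0.69), Lyz2 at -1.05 ± 0.68 (adjusted p = 0.26), Ctss at -1.22 ± 0.77 (adjusted p = 0.25), and the 3 C1q genes between -0.63 and -0.03, none passing. Adgre1 was not analysed here. Cd68 begins 782 bases after the end of Eif4a1 on the same strand. Eif4a1 rose by 1.14, and its part in the Cd68 value was not tested.

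Matrix genes fell or did not pass. Of 35 collagen and matrix genes 6 fell and none rose, at a median of -0.525, and after centring 12 fell. Col3a1, type III collagen, was at 22.5 to 465 CPM (median 50.1) in sham and 12.6 to 34.1 CPM (median 16.8) after T3, with 5 of 6 T3 libraries below every sham library (-1.95 ± 0.53, adjusted p = 0.014). Col1a1 stood at 10.1 to 84.9 CPM (median 32.4) in sham and 7.11 to 20.5 CPM (median 12.3) after T3 (-1.26 ± 0.41, adjusted p = 0.032) and lost its call without sham replicate 2, 4 or 5 or T3 replicate 2, 4 or 5, and within label number 60 both were lost. Of 15 fibroblast genes, 8 were lower and 1 was higher after T3 at an unadjusted p under 0.05 in limma. Among all 11249 genes, 4211 reached that level in either direction. The fibroblast genes Pdgfra at -0.087 ± 0.20 (adjusted p = 0.77) and Dcn at -0.04 ± 0.27 (adjusted p = 0.93) did not pass. Summed fibroblast markers were 173 to 1023 CPM in sham (median 299) and 129 to 330 CPM after T3 (median 243), and their part in the collagen values was not tested.

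Few genes were called after the lower transection in the same muscle. T9 against sham called 1 of 11249 genes (0.00889%), Gm5532, named here after its value was seen, and 1185 had an unadjusted p under 0.05. The direct test of T3 against T9 called 855 genes (7.6%), 557 higher after T3 (4.95%) and 298 lower (2.65%), and 539 without T3 replicate 5. Trim63 stood at 174 to 360.4 CPM (median 312) after T9, and T3 exceeded T9 by 2.31 ± 0.31 (adjusted p = 0.00034). Fbxo32 stood at 91.7 to 291 CPM (median 242) after T9, and the T3 excess was 2.08 ± 0.39 (adjusted p = 0.0035). In the proteasome 25 of 36 genes were higher after T3 than after T9 and none lower, at a median of 0.768 beside 0.0474 for all genes. Of the glucocorticoid-induced genes 11 of 35 were higher after T3, and of the fatty acid genes 12 of 36, none lower in either.

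Eif4ebp1 was at 46.9 to 76.8 CPM (median 65.5) after T9, inside the sham range but for its 2 lowest libraries, and exceeded T9 after T3 by 1.90 ± 0.18 (adjusted p = 2.8e-05). Among the largest T3 excesses over T9 were Krt80 (3.15 ± 0.47), Hgs (2.37 ± 0.39), Slc25a34 (2.15 ± 0.27), Depp1, a FOXO-regulated gene (2.12 ± 0.49), and Wdr62, a centrosome protein (2.22 ± 0.55). The largest deficits included Gdap1 (-2.33 ± 0.26), Cntnap2, a neurexin-family protein (-2.22 ± 0.39), and Mettl21c (-1.94 ± 0.28). Some T3 changes were not told apart from T9. Ppargc1a stood at 77.2 to 148 CPM (median 119) after T9, with T9 minus sham at 1.65 ± 0.31 (adjusted p = 0.074) and T3 minus T9 at 0.61 ± 0.31 (adjusted p = 0.28). Mdh1 was 0.86 above sham after T9 and the T3 minus T9 difference was 0.22 ± 0.18 (adjusted p = 0.56). At an unadjusted p under 0.05 in limma, 1 of 26 citric acid cycle and pyruvate genes was higher after T3 than after T9. In that list 6 were higher after T9 than in sham. These 2 counts were 5 and 9 of 20 branched-chain genes and 5 and 9 of 25 heat shock genes. Among all 11249 genes, 2347 and 1185 reached that level in either direction. These contrasts share the sham or the T3 libraries.

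In the gastrocnemius, below the lesion, T3 against sham called 3794 of 11248 genes (33.7%), 3046 higher (27.1%) and 748 lower (6.65%). The test of the difference between muscles, in 24 libraries with the mouse as a block, called 140 of 11249 genes (1.24%), 16 with a higher T3 effect in the gastrocnemius (0.142%) and 124 with a lower one (1.1%). The number was 248 after centring, 75 without the mouse block, and 68, 80, 54 and 80 without the mouse of sham replicate 4 and of T3 replicates 2, 3 and 4. The ligases were not told apart between muscles, with Trim63 at 2.70 ± 0.27 and Fbxo32 at 3.00 ± 0.29 in the gastrocnemius and differences of 0.63 ± 0.24 (adjusted p = 0.3) and 0.64 ± 0.43 (adjusted p = 0.62). For Mt1 the difference was 0.27 ± 0.30 (adjusted p = 0.8) and for Psmd2 0.0049 ± 0.24 (adjusted p = 1). No proteasome or glucocorticoid-induced gene differed between muscles at the threshold in limma, and 6 of 36 and 13 of 35 did at an unadjusted p under 0.05.

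**Figure D5:**
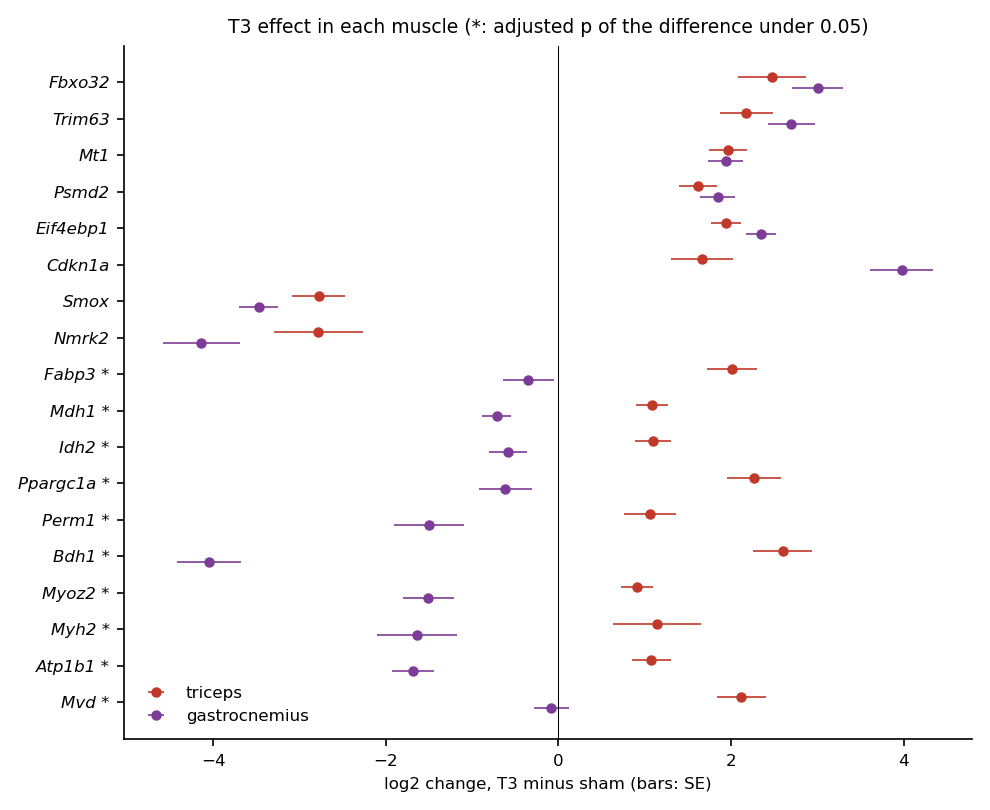
Log2 change, T3 minus sham, of 18 genes (x axis, bars: SE) in the triceps and in the gastrocnemius, with an asterisk where the difference between muscles had an adjusted p under 0.05. Fbxo32, Trim63, Mt1 and Psmd2 lie close together in both muscles, while Ppargc1a, Bdh1, Fabp3, Mdh1 and Atp1b1 lie above 0 in the triceps and below 0 in the gastrocnemius.

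Several genes of oxidative metabolism differed between the muscles. Ppargc1a was at -0.62 ± 0.31 in the gastrocnemius, a difference from the triceps of -3.04 ± 0.26 (adjusted p = 0.00011). Bdh1 was at -4.05 ± 0.37 there, a difference of -6.73 ± 0.46 (adjusted p = 7.7e-06), and the T3 effects had opposite signs in the muscles. Atp1b1 was at -1.69 ± 0.24 (-2.87 ± 0.26, adjusted p = 0.00012), Mdh1 at -0.72 ± 0.17 (-1.83 ± 0.28, adjusted p = 0.0071) and Fabp3 at -0.35 ± 0.29 (-2.11 ± 0.43, adjusted p = 0.032). The interaction was negative and passed in 5 of 36 fatty acid genes, 4 of 19 in the mitochondrial regulator list and 4 of 14 slow-fibre genes. None of these lists had a member that passed with a positive sign. The 4 in the regulator list were Ppargc1a, Perm1 and the ketone body genes Bdh1 and Oxct1. Myh2 gave -3.57 ± 0.57 (adjusted p = 0.008). Dusp18, one of the largest increases in the triceps, was at -0.24 ± 0.35 in the gastrocnemius (-3.51 ± 0.41, adjusted p = 0.0011). Lrrc52, an auxiliary subunit of potassium channels, was at 0.301 to 2.44 CPM (median 1.11) in the sham triceps and 2.68 to 12.7 CPM (median 5.56) in the T3 triceps. In the gastrocnemius the sham libraries together held 199 of its reads, and the T3 libraries held 0. Mvd of sterol synthesis and Snai3, 10785 bases apart on one strand, gave -2.02 ± 0.29 (adjusted p = 0.0042) and -2.99 ± 0.33 (adjusted p = 0.00077).

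Of the denervation-induced genes 15 of the 21 tested passed upward in the gastrocnemius and 4 of 22 in the triceps, at medians of 1.54 and 0.505, while the test of the difference called none of them, with 10 at an unadjusted p under 0.05. Ank1, an ankyrin named here after its value was seen, passed downward in the gastrocnemius (-0.45 ± 0.15, adjusted p = 0.037). Myog was at 3.13 ± 0.48 (adjusted p = 0.00036) in the gastrocnemius with a difference of 2.33 ± 0.88 (adjusted p = 0.28), and Chrna1 at 2.19 ± 0.26 (adjusted p = 6.4e-05) with a difference of 1.79 ± 0.71 (adjusted p = 0.31). Among the genes with a higher T3 effect in the gastrocnemius, Fst, the myostatin antagonist follistatin, was at 1.92 ± 0.38 there and -0.23 ± 0.30 in the triceps (2.32 ± 0.37, adjusted p = 0.0078). The tight-junction gene Cldn5 and the B-cell linker Blnk gave 1.14 and 1.71. The mouse behind sham replicate 4 entered both muscles of this test.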

How the data were processed

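Messenger RNA of mouse skeletal muscle was sequenced from stranded poly(A) libraries in paired ends, per the labels' protocols. Reads were aligned to GRCm38 with HISAT2 2.1.0 and counted with featureCounts of Subread 1.5.1, and limma is also listed, per the submitters' processing notes. The sources used here do not give the annotation, the strand setting or the authors' filter on genes of low level. The deposited file holds log2 CPM, made with 0.5 reads added, of 11249 genes in 30 libraries, 11240 of them with a symbol. Whole reads came back from 100% of the values within 0.01 reads, which gives the depth of each library.

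The deposited log2 values of the 18 triceps libraries were fitted with limma 3.58.1 in R 4.3.3 (two-sided moderated test with a variance trend, a term for the label number 57 or 60). A gene needed log2 CPM of 0 or more in 4 or more libraries, and all genes met this. Calls used Benjamini-Hochberg adjusted p under 0.05 over all genes. The muscle difference used 24 libraries of 12 mice and a block for each mouse, read from the number after 57 or 60 in the label. CPM ranges are recovered reads per 1000000. The fit was also run on simulated counts in which chosen genes changed by a known fold. No shift of whole libraries was put in, so that run does not bear on the scaling. Replicate libraries differed beyond counting noise (chi-square per degree of freedom 10.1 to 621), so none was merged. Alternatives changed the scaling, filter, pseudocount, weights, label-number term and libraries.

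The comparison, the 51 gene lists (1111 members) and the genes shown were chosen with earlier results of these data known. Named genes are the 20 largest increases and the 20 largest decreases at adjusted p under 0.05 with a group mean, in the higher of the 2 groups, of log2 CPM 1 or more and no predicted-gene symbol, up to 6 called members per list with the smallest p plus defining members not called, a panel of 36 genes, and the 8 largest differences per direction in the T3 against T9 and muscle tests, under the same conditions. Some genes that the rule names are not reported here. Positions come from the GRCm38 annotation (11245 genes placed) and promoters from RefSeq (8375 genes matched).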

Additional observations from a re-analysis of the deposited data

Results flagged for a closer look

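A library of a group of 6 stood apart where its gap to the nearest other, over the group's range, exceeded Dixon's critical value, on the log2 scale for genes. Chance gives about 1 such case in 20 groups, and here 12 of 148 group checks over library measures and 71 genes met it. T3 replicate 5 had a depth of 88.8 in units of 1000000 reads, above every other triceps library. Its Gpnmb was 38.4 CPM (7.35 to 13 in the others), its Aqp4, the water channel of fast fibres, 1.88 (6.1 to 11), and its Mstn 25.6 (75 to 90.7). T3 replicate 4 had a median log2 CPM of 3.71, the lowest of its group. T3 replicate 1 had 0.254 CPM of Fgfbp1 (1.79 to 2.77). Sham replicate 4 had 705 CPM of Lyz2 (9.01 to 25.9), 85.8 of Ctss (1.57 to 4.12), 27.5 of Myog (2.93 to 5.46) and 5.57 of Mt2 (1.13 to 1.8). Sham replicate 3 had 0.305 CPM of Chrnd (1.4 to 3.16), and sham replicate 1 had 21.5 CPM of Ighm (36.2 to 45.3).

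The T3 effect differed between muscles by a test of the difference (limma, adjusted p under 0.05) in 9 of the same 71 genes, which are the largest triceps changes and the panel. On the log2 scale, gastrocnemius minus triceps, the difference was -6.73 for Bdh1, -4.29 for Gbp10, a guanylate-binding protein, -3.57 for Myh2, -3.51 for Dusp18, -3.04 for Ppargc1a, -2.99 for Snai3, -2.59 for Perm1, a muscle regulator of PGC-1 targets, and -1.92 for Slc25a34. Lrrc52 gave -9.02, but its T3 gastrocnemius libraries held 0 reads, so that size depends on the offset of 0.5 reads and is no bound. The Perm1 call in the triceps itself, 1.07 ± 0.30 (adjusted p = 0.017), was lost without sham replicates 3 and 4, where the change was 0.56, and also without the label-number term, within either label number and with the library median as a covariate.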

How the results depend on the processing

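For T3 against sham, 2624 genes passed in the reported model. Within label number 60 the count moved to 1247 and within 57 to 684, both with fewer libraries. Leaving out 1 library gave 1865 (T3 replicate 2) to 3122 (T3 replicate 4). The other settings stayed within 1.5 times, from 1798 without the label-number term to 3243 with library weights, and quantile scaling gave 1109 higher and 876 lower, the library median as a covariate 1709 and 1151. Voom weights on recovered reads gave 2758. For T3 against T9, 855 genes passed, and leaving out 1 library gave 539 (T3 replicate 5) to 1066. For the difference between muscles, 140 passed, and the count moved to 316 with quantile scaling, 248 after centring and 75 without the mouse block. Leaving out 1 mouse gave 54 to 183, with 54, 68, 80 and 80 without the mice of T3 replicate 3, sham replicate 4 and T3 replicates 2 and 4. The cause was not tested. Of 229 called genes examined singly, 200 kept their call in every leave-one-out fit and 141 in every alternative but label number 57 alone. Of the 229, Asb15 changed sign, at -0.097 within label number 57 (adjusted p = 0.888). Of 49 lists, the count of called members moved by over 1.5 times in 30 within label number 60, 17 after centring, 13 with the median covariate and 9 without sham replicates 3 and 4, list counts added after seeing the data.

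Same-numbered sham and T3 libraries correlated between -0.344 and 0.652 in their deviations, above 0.1 in 4 of 6 numbers. Taken within label number, the correlations ran from -0.236 to 0.358. The numbers were not taken as pairs. A replicate block in place of the label number gave 2366 genes for T3 against sham and 688 for T3 against T9, and 2 of 6 libraries correlated best with their own number. A call lost in the 2 against 2 libraries of label number 57 does not show that a gene did not change. Depth limits genes near 1 CPM most, outside T3 replicate 5.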

Other observations

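Lipid and sterol synthesis genes divided after T3. Of 25 genes in the file 5 rose and 8 fell, at a median log2 change of -0.147, and after centring 5 rose and 11 fell. Mvd, the decarboxylase of mevalonate, stood at 4.36 to 7.35 CPM (median 6.63) in sham and 13.7 to 68.1 CPM (median 26.1) after T3 (2.12 ± 0.28, adjusted p = 8.2e-05), and Fdft1, squalene synthase, at 58.1 to 82.2 CPM (median 77.0) and 115 to 188 CPM (median 137) (0.93 ± 0.12, adjusted p = 7.3e-05), neither with overlapping groups. Fdft1 overlaps Ctsb on the genome, and the strand setting is unknown here. Acss2, which makes acetyl-CoA from acetate, rose by 1.70 ± 0.26. Scd1, the stearoyl-CoA desaturase, stood at 40.8 to 122 CPM (median 68.2) in sham and 11.1 to 26.8 CPM (median 17.2) after T3, with every T3 library below every sham library (-1.99 ± 0.32, adjusted p = 0.00037), and did not pass within label number 57. The regulator Srebf2 was at -0.13 ± 0.14 (adjusted p = 0.49).

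Of 16 p53-linked genes 7 rose and 1 fell. Phlda3, an inhibitor of Akt, stood at 151 to 354 CPM (median 176) in sham and 330 to 461 CPM (median 421) after T3, with 5 of 6 T3 libraries above every sham library (1.08 ± 0.19, adjusted p = 0.0007), while Mdm2 was at 0.17 ± 0.14 (adjusted p = 0.35). Of 16 hypoxia genes 6 rose and none fell, Egln3 and Bnip3 among them, while Vegfa was at 0.72 ± 0.33 (adjusted p = 0.12) and Hif1a at 0.46 ± 0.18 (adjusted p = 0.077). Of 11 thyroid hormone genes 1 rose and 2 fell, with Rxrg, a retinoid X receptor, at -0.67 ± 0.19 (adjusted p = 0.014), which did not pass within label number 60. Among 15 satellite cell and myogenic genes 3 rose, a share near the 19% of all genes, and Myod1 was at 0.014 ± 0.43 (adjusted p = 0.98). Of 10 cell cycle genes 1 rose and 2 fell, with the inhibitor Cdkn1c at 19.9 to 29.6 CPM (median 21.3) in sham and 9.5 to 14.9 CPM (median 11.8) after T3, without overlap (-0.95 ± 0.13, adjusted p = 8.7e-05). Endothelial genes were mostly not called, 1 of 20 rising and 1 falling. The latter was Egfl7, a factor secreted by the endothelium, at -0.53 ± 0.12 (adjusted p = 0.0044), which passed within neither label number. Car3, carbonic anhydrase 3, was the only one of 9 adipocyte genes called and is also abundant in muscle fibres (-0.998 ± 0.21, adjusted p = 0.0029), without passing within label number 60.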
